A study of Homo sapiens with 8 samples.

Results

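The expression profile of SAS cells transfected with a miR-629-3p mimic was set directly against that of SAS cells transfected with a miR-210-3p mimic, without the negative control. SAS is an established squamous cell carcinoma line of the human tongue, and a mimic is a synthetic double-stranded RNA that raises the level of one miRNA. Both groups received 25 nM of mimic in medium with puromycin, were collected at 48 h according to the sample labels and were represented by 2 arrays each, so that 4 of the 8 arrays of the series were compared. The other 4 arrays, from cells given miR-874-3p or the negative control (NC), lie in another row of the slide and are shown only for orientation. The study's methods give a shorter time to extraction, another extraction kit and the name SAS/GFP for the cells. The question behind this comparison is which transcripts differ between cells given either of a pair of miRNAs that the study linked to cisplatin (CDDP) resistance. Without an untreated reference, a difference can come from a change in either group or in both.

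Probes were kept by a detection rule, which was set with earlier results of these data known. Each probe's signal was expressed as log2 of the processed signal minus the 75th percentile of its array, so that a level of 0 is the 75th percentile and a difference of 1 is 2-fold. A probe was kept if the scanner software set it well above background in both replicates of either group. This rule kept 27368 of 58201 probes, and the brightest kept probe of each gene gave 21268 of 43317 gene names. Of these genes, 19495 were measured on all 4 arrays, 1050 on 3, 571 on both miR-629-3p arrays and neither miR-210-3p array, and 152 on both miR-210-3p arrays and neither miR-629-3p array. Between 27080 and 28994 probes per array were well above background and no spot was saturated. Replicates differed by 2-fold or more in 355 genes with miR-629-3p and in 445 genes with miR-210-3p. All 4 arrays lie in row 1 of 1 slide read in 1 scan, with miR-629-3p in columns 1 and 2 and miR-210-3p in columns 3 and 4, so group and slide column cannot be told apart. The labels do not say whether the arrays of a group come from separate cultures, and the p-values measure only the spread between these samples. All 10 squamous epithelial markers examined, among them KRT5, KRT14, TP63 and EPCAM, were well above background on all 4 arrays. The fibroblast genes COL1A2, COL3A1, DCN and LUM and the endothelial gene KDR were well above background on none. Other markers of these cell types were on all 4, namely COL1A1 and PDGFRB of fibroblasts, VWF and CDH5 of endothelium and PTPRC of leukocytes, and PECAM1 and CD3E were on 2.

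A miRNA is loaded into an Argonaute protein and lowers target transcripts that pair with its seed, the bases near its 5′ end. miR-210-3p is the classical miRNA of low oxygen, induced by hypoxia-inducible factor and known for lowering mitochondrial genes, while fewer targets of miR-629-3p are established. The mature sequences below, from RefSeq, are shown because the results are read against their seeds (bases 2 to 8, in capitals), which differ.
hsa-miR-629-3p: gUUCUCCCaacguaagcccagc
hsa-miR-210-3p: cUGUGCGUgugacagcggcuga
The first is encoded on the minus strand at chr15:70079387-70079408 and the second on the minus strand at chr11:568112-568133 (GRCh38.p14). The complement of the first seed reads GGGAGAA and that of the second ACGCACA in a sense transcript.

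One probe bears directly on the label of the miR-210-3p arrays. The probe of MIR210, the gene of the miR-210 precursor, lies on chromosome 11 from 568089 to 568148 (hg19, minus strand) and its sequence holds the whole mature miRNA. Its level was -0.98 and -0.79 on the miR-210-3p arrays, against -2.61 and -3.01 for miR-629-3p. Arrays of slide row 2 read -3.23 to -2.45. The miR-210-3p arrays were thus above all 6 others, and the difference between miR-629-3p and miR-210-3p was -1.92 (SE 0.17, adjusted p = 0.0121, limma). No kept probe carried the name MIR629, so the miR-629-3p arrays have no such check.

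With the adjusted p below 0.05 and a difference of 2-fold or more, 631 genes (2.97 percent of those tested) were higher and 464 genes (2.18 percent) lower on the miR-629-3p arrays than on the miR-210-3p arrays. Normexp background correction gave 164 higher and 150 lower at this threshold and the methods' t-test 178 and 182, without the excess of higher calls in the latter. Of the 631 and 464 genes, 406 and 215 matched a protein-coding gene. At any fold change, 2710 genes (12.7 percent) were higher and 3462 (16.3 percent) lower at the same adjusted p, and at an unadjusted p under 0.05 with 2-fold, the threshold of the study, 701 (3.3 percent) were higher and 526 (2.47 percent) lower. The median difference over all genes was -0.02. Among the genes measured on all 4 arrays, 425 (2.18 percent) were higher and 362 (1.86 percent) lower at 2-fold and the adjusted p, and 435 (2.23 percent) and 379 (1.94 percent) at 2-fold and the unadjusted p. A further 256 probes of 202 called genes allowed a second look at the same gene. Of these, 218 had the same sign as the gene's brightest probe and 140 were also called in that direction, while 7 were called in the other direction. With any 1 array left out, the spread comes from the other group alone, with 1 residual degree of freedom, and the single array is taken to share it. No gene then passed the adjusted threshold, and 746 to 785 were higher and 563 to 583 lower at the unadjusted p with 2-fold. These counts do not say whether the same genes were called.

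**Figure D1:**
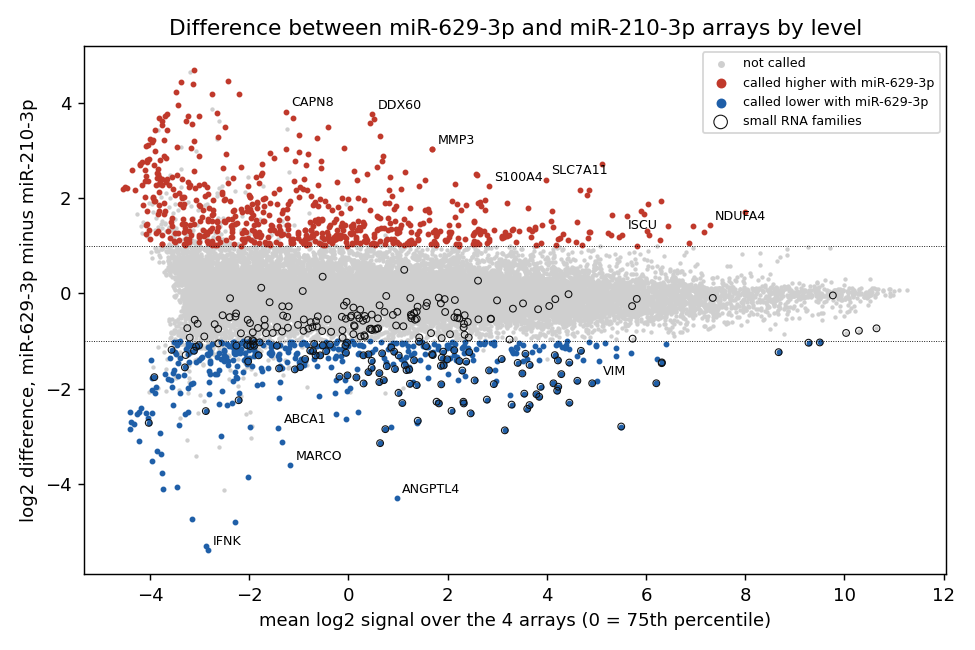
Difference between the groups (vertical axis, log2, miR-629-3p minus miR-210-3p) against the mean level of each gene over the 4 arrays (horizontal axis, log2 signal, 0 is the 75th percentile), with 631 genes called higher in red, 464 called lower in blue and genes of 5 small RNA families circled. The dotted lines mark 2-fold; ANGPTL4, at -4.30, stands well below the other genes of its level, and most circled genes lie below 0.

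The coding gene with the largest difference among those measured on all 4 arrays was ANGPTL4, which encodes a secreted inhibitor of lipoprotein lipase and is a known target of hypoxia-inducible factor and of PPAR receptors. Its probe lies on chromosome 19 from 8439197 to 8439256 (hg19). ANGPTL4 read -1.14 and -1.20 with miR-629-3p against 3.22 and 3.03 with miR-210-3p, so it was 19.7-fold lower with miR-629-3p (log2 difference -4.30, SE 0.09, adjusted p = 0.00487). The 4 arrays of slide row 2 (2.04 to 2.63) lay near the miR-210-3p level. MARCO, a scavenger receptor best known from macrophages, read -3.23 and -2.73 against 0.61 and 0.65, a difference of -3.60 (SE 0.19, adjusted p = 0.00709). Here the 4 other arrays, at -1.91 to -1.58, lay between the groups. ABCA1, the transporter that exports cholesterol to apolipoprotein A-I, read -2.87 and -2.80 against -0.02 and 0.03 and was 7.15-fold lower. The prostaglandin transporter SLCO2A1 was 7.03-fold lower and PGF, a ligand of the VEGF family, 6.6-fold lower. SAPCD1 was 4.57-fold lower, the transmembrane collagen COL13A1 4.46-fold, the poly(A) polymerase gene FAM46C (TENT5C) 3.96-fold and the glucose transporter SLC2A3 3.72-fold. For FAM46C the miR-210-3p arrays stood apart, at 1.07 and 0.96 against -1.01 to -0.55 on the other 6. For SLC2A3 the miR-629-3p arrays stood apart, at -2.80 and -2.57 against -0.80 to -0.15 on the other 6, and its other probe, detected on 1 miR-629-3p array, differed by -0.72 and was not called.

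In the other direction, CAPN8, a calpain protease of the gastric mucosa, had the largest difference. It read 0.79 and 0.52 with miR-629-3p against -3.08 and -3.24 with miR-210-3p (3.81, SE 0.13, adjusted p = 0.00531), and its probe lies on chromosome 1 from 223805041 to 223805100. DDX60, an interferon-induced helicase that helps to sense viral RNA, read 1.97 and 2.74 against -1.69 and -1.11, a difference of 3.76 (SE 0.36, adjusted p = 0.0131). UGT2B7, a UDP-glucuronosyltransferase that conjugates drugs and steroids, was 12.8-fold higher and NUPR1, a stress-induced transcriptional regulator, 12.5-fold higher. For UGT2B7 the other 4 arrays lay between the groups, from -1.14 to -0.68, below both miR-629-3p arrays (0.82 and 0.63) and above both miR-210-3p arrays, whose mean was -2.95. ANK1, an ankyrin of the membrane skeleton, was 11.2-fold higher at its brightest probe. Its other probe, detected on neither miR-210-3p array, differed by 1.27 and was called. OASL, an interferon-induced antiviral protein related to the oligoadenylate synthetases, was 9.86-fold higher. MMP3 (stromelysin), which degrades extracellular matrix, read 3.30 and 3.10 against 0.19 and 0.15 and was 8.16-fold higher, with the other 4 arrays (-0.68 to 0.55) near the miR-210-3p level. The integrin subunit ITGB8 was 8.12-fold higher, ZNF750, a regulator of epidermal differentiation, 7.8-fold, and AKR1B10, an aldo-keto reductase of the NRF2 response, 7.61-fold. In all of these genes the groups did not overlap, which largely follows from their choice as the largest called differences. Among genes without a match to a coding gene, FLJ13744 (3.56) and FLJ46120 (3.32) had the largest positive differences and SCARNA1 (-3.15) and lnc-SMC1A-2 (-3.12) the largest negative ones.

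**Figure D2:**
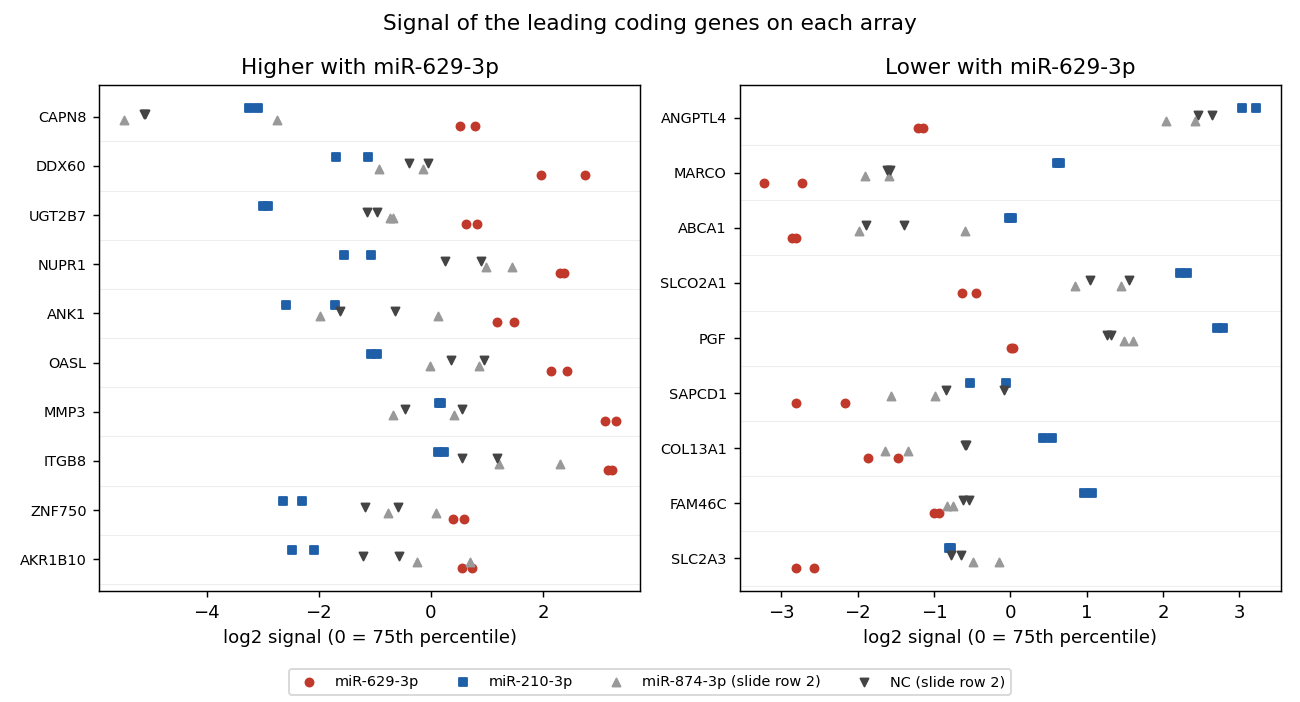
Level of the leading coding genes named in the text in each direction (vertical axis) on each of the 8 arrays (horizontal axis, log2 signal, 0 is the 75th percentile), with 1 point per array. The genes were chosen for large called differences, so red circles (miR-629-3p) and blue squares (miR-210-3p) lie apart in each. The arrays of slide row 2 lie near either group, between them or, for some arrays in CAPN8, below both.

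Of the called genes, 177 were measured only with miR-629-3p and 72 only with miR-210-3p. For these the arrays give a lower bound, set against the dimmest signal measured or the probe's own signal, whichever is higher on each array of the dim group, and 110 of the 571 genes of the first kind and 55 of the 152 of the second had a bound of at least 2-fold, called or not. Among coding genes, TET3 (at least 9.77-fold), CALB1 (6.33), UGT2B11 (6.24) and PPEF2 (5.54) were among those with the largest bounds with miR-629-3p. TET3, a dioxygenase that oxidises methylcytosine in DNA, read 0.97 and -1.20 on its miR-629-3p arrays, and another of its probes was measured in both groups and pointed the other way (-0.74), so this bound is uncertain. CALB1 is a calcium-binding protein and UGT2B11 a glucuronosyltransferase. With miR-210-3p, the largest bounds were those of XYLB, a xylulose kinase (at least 13.7-fold), IFNK, the keratinocyte interferon kappa (between XYLB and THPO), THPO, thrombopoietin (11.1), SELE, the adhesion receptor E-selectin (10.9), and NOS1, neuronal nitric oxide synthase (3.49). IFNK read -0.07 and -0.21 with miR-210-3p and lay between -5.61 and -3.12 on the other 6 arrays. THPO too had another probe, measured only with miR-629-3p, which pointed the other way (3.60, adjusted p = 0.119), so its bound is equally uncertain. NOS1 differed between its miR-210-3p arrays (-0.99 and -2.73), and with a floor at the dimmest detected signal it was -1.80 and not called.

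Genes reported as miR-210-3p targets in general were collected in a list of 25, of which 23 were tested and 22 measured on all 4 arrays. Of these 22, 7 were higher with miR-629-3p, that is lower with miR-210-3p, and 1 was lower. This is 31.8% against 12.3 percent of all genes measured on all 4 arrays for higher calls, and 16.9 percent of all such genes were called lower. Their median difference was 0.13 and that of all such genes -0.03. ISCU, the scaffold on which iron-sulfur clusters are built, read 4.87 and 4.93 with miR-210-3p against 6.12 and 6.14 with miR-629-3p (1.23, SE 0.06, adjusted p = 0.00703). The other 4 arrays read 6.04 to 6.17, so the miR-210-3p arrays stood apart from all others. NDUFA4, a subunit of cytochrome c oxidase, read 6.51 and 6.63 with miR-210-3p against 8.02 and 7.98 with miR-629-3p and 7.79 to 7.98 elsewhere (1.43, SE 0.07, adjusted p = 0.00709). FGFRL1, a decoy receptor for fibroblast growth factors, was 2.76-fold lower with miR-210-3p and the nuclear import receptor TNPO1 2.11-fold lower. Another probe of TNPO1 differed by 0.59, called but under 2-fold. SDHD, a membrane anchor of succinate dehydrogenase (0.62), and GPD1L, a glycerol-phosphate dehydrogenase (0.64), passed the adjusted threshold without reaching 2-fold, again with the other 4 arrays nearer miR-629-3p. BDNF (0.81) was called as well, but with miR-629-3p at 0.75 and 0.73, miR-210-3p at -0.15 and -0.00095, and the 3 other arrays with a value at -0.13 to -0.08, it was the miR-629-3p arrays that stood apart. Its other probe differed by 0.34 and was not called, and quantile normalization gave 0.35 (adjusted p = 0.154), which ends the call. CASP8AP2 (-0.33) was the member called lower.

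The study lists 34 putative targets of miR-629-3p, chosen partly on the present miR-629-3p arrays, so their direction is not independent evidence. Of these, 27 were tested, all on all 4 arrays, and 17 (63.0%) were called lower and 0 higher, with a median difference of -0.72. Those at 2-fold were SLC2A3, LRRC58, STMN1, NDC1, LBH, SLC25A13 and RAP2A. STMN1, which encodes the microtubule-destabilising protein stathmin, read 5.56 and 5.49 with miR-629-3p against 6.88 and 6.94 with miR-210-3p (-1.38, SE 0.06, adjusted p = 0.00646), against 6.56 to 6.80 elsewhere. NDC1, a membrane nucleoporin, differed by -1.38 and the mitochondrial aspartate-glutamate carrier SLC25A13 by -1.20. The transcriptional cofactor LBH differed by -1.24 and the small GTPase RAP2A by -1.03. In 6 of these 7 genes all 4 other arrays lay nearer the miR-210-3p mean; the exception was LRRC58 (0.05 and 0.03 with miR-629-3p, 1.49 with both miR-210-3p arrays, 0.75 to 1.31 elsewhere). PTP4A1, a phosphatase, differed by -0.72 and was called, and INPP5A, an inositol phosphatase, by -0.11 and was not.

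**Figure D3:**
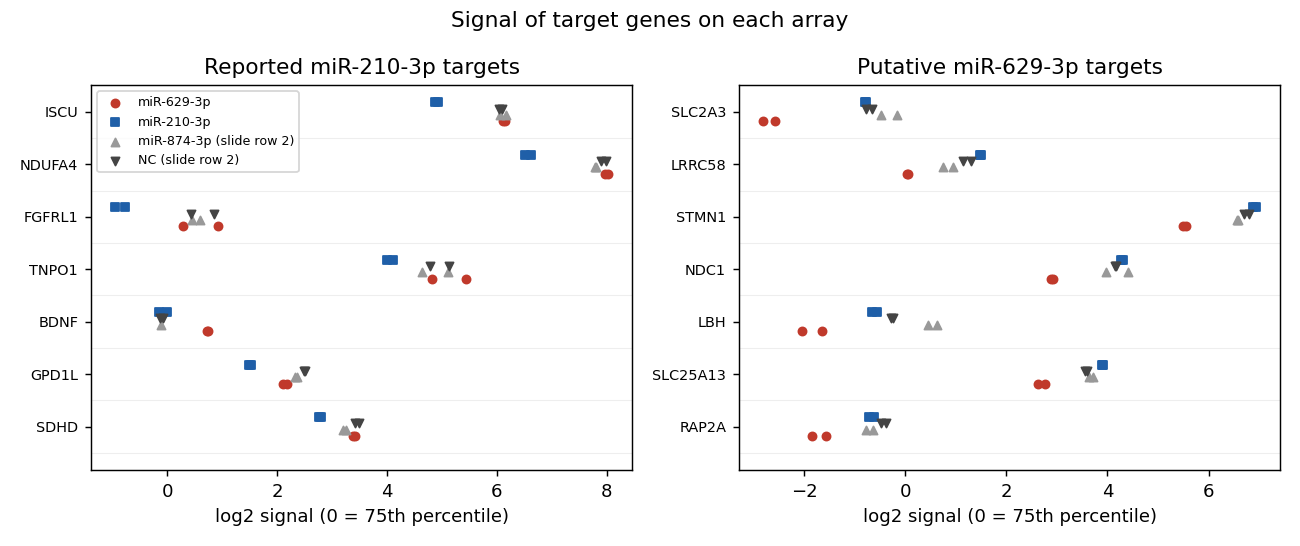
Level of the reported miR-210-3p targets called higher with miR-629-3p (left) and of the putative miR-629-3p targets called lower at 2-fold (right) on each of the 8 arrays (horizontal axes, log2 signal, 0 is the 75th percentile), with 1 point per array. Blue squares (miR-210-3p) lie apart to the left in 6 of the 7 genes of the left panel, the exception being BDNF, and red circles (miR-629-3p) lie apart to the left in all genes of the right panel.

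A match to a seed was also looked for in the probes themselves, which are 60 bases long and sense to the transcript. A probe covers only a small part of its transcript, so a match is a description and its absence says nothing about the rest. The complement of the miR-629-3p seed was found in 161 of the 27368 kept probes (0.588%). Of these, 28 were called lower and 15 higher with miR-629-3p, 17.4% and 9.32%, while 15 and 12 percent of all kept probes were called lower and higher. Their median difference was -0.09, against -0.02 for all kept probes. At 2-fold, 7 were lower and 3 higher, against 2.09 and 2.96 percent of all kept probes. The complement of the miR-210-3p seed was found in 43 probes (0.157%). Of these, 9 (20.9%) were higher and 0 lower with miR-629-3p, 5 of them at 2-fold, and their median was 0.09. Stretches around the match (in capitals) in 3 probes per miRNA with differences of 2-fold or more, lower with the matching miRNA, are shown to let the sites be read against the seeds above.
NDC1: tactttaatGGGAGAAatcatggaa
METTL21A: ggttctcagGGGAGAAagcacatgt
YLPM1: gaaagccctGGGAGAAggtgaatta
DIMT1: gccgcagagACGCACAactttacac
WLS: tacttgtatACGCACAcaaatacac
INF2: tgtaccatgtggcaaacACGCACAt
The first 3 hold a match to miR-629-3p and the last 3 a match to miR-210-3p. In the probe coordinates of the array (hg19) these probes lie in chr1:54233479-54233538, chr2:208477608-208477667, chr14:75322185-75322244, chr5:61684548-61684607, chr1:68564208-68564267 and chr14:105171047-105171106. The probe of DIMT1, a ribosomal RNA methyltransferase, read 3.62 and 3.76 with miR-210-3p against 4.83 and 4.88 with miR-629-3p, a difference of 1.16 (adjusted p = 0.00876), and 4.84 to 5.16 on the other arrays. WLS, which carries Wnt proteins to the cell surface, differed by 1.04 and the actin regulator INF2 by 1.18. Other probes of WLS, without the match, differed by 0.31 and 0.95 and were not called, and those of INF2 by 0.34 (called) and 0.47 (not called). For METTL21A and YLPM1 the probes with the match differed by -1.16 and -1.81, the latter probe undetected on both miR-629-3p arrays, whereas the brightest probes of these genes differed by -0.21 and 0.09 and were not called. The other probes with a match that differed in this way at 2-fold included those of FOXP4-AS1, MGAT5 and a pair of unnamed transcripts for miR-629-3p. For miR-210-3p they were those of PECAM1, undetected on both miR-210-3p arrays, and MARVELD3.

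Small non-coding RNAs, a group singled out after its values were seen, were mostly lower with miR-629-3p. Small nucleolar RNAs guide the chemical modification of ribosomal RNA. Those with an H/ACA box (SNORA) direct pseudouridylation, those with a C/D box (SNORD) ribose methylation, and the related Cajal body RNAs (SCARNA) act on spliceosomal RNAs. Of 94 SNORA genes tested, 68 were lower at 2-fold and 0 higher, 72.3% against 2.18 percent of all genes, and 85 were lower at any fold. Of 124 SNORD genes, 25 were lower at 2-fold and 85 at any fold, and 0 were higher. Of 21 SCARNA genes, 17 were lower at 2-fold and 0 higher. The 4 vault RNAs, the RNA part of vault particles, were all lower, and of 11 SNAR genes, RNAs of primates that bind a double-stranded RNA-binding protein, 4 were lower at 2-fold and 7 at any fold. The SNAR genes are near-identical copies whose probes may read each other's RNA. The median differences were -1.39 for SNORA, -0.68 for SNORD, -1.59 for SCARNA, -0.83 for SNAR and -1.83 for the vault RNAs. Together these families made up 118 (25.4%) of the 464 genes called lower. At an unadjusted p with 2-fold, normexp background correction left 1 of 27 SNORD genes lower and quantile normalization 2 of 4 SNAR genes.

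SNORA1 read 1.71 and 1.72 with miR-629-3p against 4.65 and 4.53 with miR-210-3p, 7.35-fold lower (-2.88, SE 0.07, adjusted p = 0.00487). SNORA48 read 4.04 and 4.16 against 6.94 and 6.86. SCARNA1 read -1.01 and -0.86 against 2.20 and 2.22, a difference of -3.15 (SE 0.08, adjusted p = 0.00487). All of these were lowest on the miR-629-3p arrays among the 8, and the replicates of both groups lay close together. In VTRNA1-1, a vault RNA, the levels were 0.29 on both miR-629-3p arrays against 2.24 and 2.14, and in VTRNA2-1 they were -0.02 and -0.05 against 2.03 and 2.08. The other arrays showed where the groups stand. The median SNORA level was 1.13 and 1.17 for miR-629-3p, 2.51 and 2.52 for miR-210-3p, and 2.05 to 2.48 in slide row 2. In 86 of 94 SNORA genes, 84 of 124 SNORD genes and 17 of 21 SCARNA genes all 4 arrays of slide row 2 were above both miR-629-3p arrays, against 4115 (19.3%) of all 21268 genes. In 32, 40 and 13 of them, respectively, all 4 also lay below both miR-210-3p arrays, against 979 (4.6%) of all genes.

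Not every small or abundant non-coding RNA differed in this way. RN7SL1, the RNA of the signal recognition particle, differed by -0.24 (adjusted p = 0.0505) and RN7SK, which restrains transcription elongation, by -0.24 (adjusted p = 0.0786). The ribosomal RNA probe of RNA28S5 differed by 0.09 (adjusted p = 0.348). That of RNA18S5 differed by 0.61 and was not called, with its miR-629-3p arrays apart at 5.14 and 6.72. Of 3 genes matched to ribosomal RNA, 1 was called lower at 2-fold. The snoRNA SNORD3B-1 and the minor spliceosomal RNA RNU4ATAC gave different answers by probe. Their brightest probes differed by -0.04 and 0.06 and were not called, while their other probes differed by -0.63 and -2.09 and were called lower, that of RNU4ATAC being detected on 1 of the miR-629-3p arrays. RNU6ATAC, the partner of RNU4ATAC, differed by -1.85 (adjusted p = 0.00531). The minor spliceosomal RNAs RNU11 (-0.73) and RNU12 (-0.40) were called lower under 2-fold. RMRP (-0.62) and TERC, the telomerase RNA (-0.66), were called lower without reaching 2-fold, and RPPH1 (-0.34, and 0.52 at another probe) was not called. The spliced transcripts of 22 snoRNA host genes (SNHG genes and GAS5), from whose introns many snoRNAs are cut, had a median difference of 0.01, with 2 higher and 4 lower at any fold and 0 at 2-fold. A probe cannot tell a mature small RNA from its precursor or from the intron of its host. What the difference rests on was not tested.

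**Figure D4:**
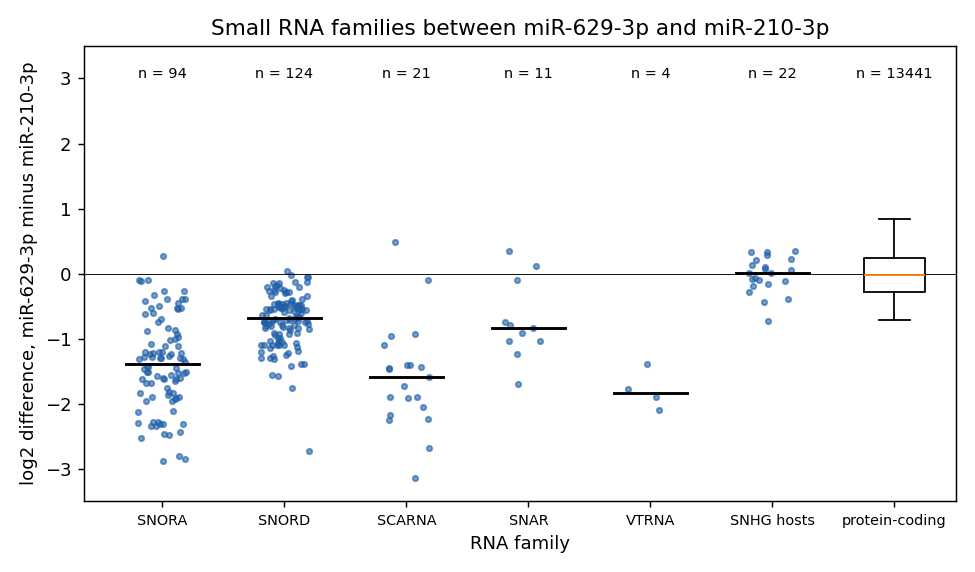
Difference between the groups (vertical axis, log2, miR-629-3p minus miR-210-3p) for each gene of 5 small RNA families and of the snoRNA host genes (points, with a bar at the median), beside a box of the protein-coding genes (median, quartiles and whiskers at the 5th and 95th percentiles). SNORA, SCARNA and VTRNA medians lie between -1.83 and -1.39, while host genes centre on 0.01.

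Lists of genes by function, written with earlier results of these data known, are given below by the members measured on all 4 arrays. Among all such genes 12.3 percent were called higher and 16.9 percent lower at any fold, with a median of -0.03. The list with the highest share of members called higher was the interferon response, the set of antiviral genes that type I interferon induces through the factor ISGF3. Of 33 members, 21 (63.6%) were higher and 2 lower, and their median was 0.59. Beside DDX60 and OASL, IFI44 read 1.76 and 1.51 with miR-629-3p against -0.92 and -0.82 with miR-210-3p (2.50, SE 0.12, adjusted p = 0.00646), and the NC arrays, at 0.83 and 0.64, lay between them. IFI44L was measured only with miR-629-3p (at least 2.27-fold). MX1 (0.98) and IFI27 (0.91) passed the adjusted threshold just under 2-fold. On the NC arrays MX1 read 0.33 and 0.43, near miR-629-3p (0.32 and 0.37), against -0.82 and -0.45 with miR-210-3p. The lower members were SP100 (-0.44) and IFITM3 (-0.36). For DDX60 the other 4 arrays lay nearer miR-210-3p, whereas for IFI27 and IFI44L they lay nearer miR-629-3p.

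The promoters of these genes were read for the letters of the interferon-stimulated response element, GAAA, any 2 bases and GAAA again on either strand, in RefSeq promoters from 250 bases before to 50 bases after the start site. Both the motif and the genes shown were chosen after the values were seen. The letters occurred in 3.65% of 27305 promoters, in 19 of the 32 list members with a promoter and in 7 of the 11 such members called higher at 2-fold. The share was thus 59.4% in the whole list and 63.6% among these called members. Because the list is made of interferon-induced genes, its distance from all promoters says nothing about the difference between the groups. A promoter with overlapping matches was counted once. Examples are given with the match in capitals.
DDX60: ggagaaagGAAACCGAAActcccgcc
IFI44: acactgagTTTCAGTTTCctttctct
ISG15: tgcctcggGAAAGGGAAAccgaaact
These stretches lie at chr4:168318788-168318813 (minus strand), chr1:78649763-78649788 and chr1:1013376-1013401 (plus strand; GRCh38.p14). Their matches begin 53, 18 and 113 bases before the start site. In IFI44 the letters stand on the opposite strand. ISG15, a ubiquitin-like protein, was 2.01-fold higher with miR-629-3p.

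Targets of NRF2, the factor that answers oxidative stress, were higher in 10 of 21 members and lower in 0, with a median of 0.34. Beside AKR1B10, the glutathione peroxidase GPX2 read 0.53 and 0.47 with miR-629-3p against -2.17 and -2.23 with miR-210-3p (2.70, SE 0.06, adjusted p = 0.00487). The other 4 arrays, at -1.71 to -1.22, lay nearer miR-210-3p. SLC7A11, the cystine importer that feeds glutathione synthesis, read 5.21 and 5.14 against 2.78 and 2.81, and the other 4 arrays read 3.15 to 3.48. AKR1C1 was measured only with miR-629-3p (at least 2.11-fold). FTH1 (0.95) and NQO1 (0.70) were called under 2-fold, while GCLM (0.08), GCLC (0.15) and TXN (-0.17) were not called. For NQO1 the NC arrays (1.02 and 1.04) lay nearer miR-629-3p (1.21 and 1.17) than miR-210-3p (0.44 and 0.53). For AKR1B10 the other 4 arrays spread from -1.22 to 0.71, against 0.74 and 0.56 with miR-629-3p and -2.48 and -2.08 with miR-210-3p. The letters of the antioxidant response element, TGAC, any 3 bases and GC on either strand, occurred in 13.6% of all promoters and in 5 of 19 list members. Because the list is made of NRF2 targets, this too says nothing about the difference between the groups. Drug-metabolising enzymes were higher in 12 of 29 members and lower in 4, with a median of 0.21. UGT2B7, UGT2B10 (2.78), CYP1B1 (1.96) and UGT1A6 (1.84, with another probe at 1.29 that was not called), which add glucuronic acid or oxygen to foreign compounds, led the list. TPMT, which inactivates thiopurines, was higher by 0.84, and UCK2, a uridine kinase, had -0.91. Among 34 genes of platinum transport and DNA repair, 6 were higher and 9 lower. The metallothioneins MT1X (-1.17) and MT1F (-1.02), which bind metals, and the transporter ABCC2 (1.08) were at 2-fold, and BRCA1 (-0.77) and SLC31A2 (0.74) were called below it.

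Cytokine genes were higher in 12 of 28 members and lower in 6, with a median of 0.34. The chemokine CCL5 was 2.99-fold higher with miR-629-3p, at -1.13 and -1.22 against -2.99 and -2.52, but the NC arrays read 0.05 and -1.24, so it was low with miR-210-3p. The interleukin-1 receptor antagonist IL1RN was 2.65-fold higher at its brightest probe, but another probe differed by 0.07 and was not called. TNFAIP3, which ends NF-kB signalling, was 2.54-fold higher. The other members at 2-fold, named after their values were seen, were IL6 (1.34), IL1A (1.15), IL18 (1.12) and IL1B (1.05). CCL2 was measured only with miR-629-3p (at least 4.19-fold). CSF3 had -0.91.

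Hypoxia-inducible genes were lower with miR-629-3p in 12 of 25 members and higher in 1, with a median of -0.33. ANGPTL4 led them, followed by the collagen prolyl hydroxylases P4HA1 (2.88 and 2.75 against 4.26 and 4.21, -1.42) and P4HA2 (-1.31). LOX had -0.94. CA9, carbonic anhydrase of the hypoxic cell surface, was measured only with miR-210-3p but not called (adjusted p = 0.0698). VEGFA (0.02) and ADM (0.04), equally hypoxia-inducible, did not pass the test. For P4HA1, P4HA2, LOX and CA9 all 4 arrays of slide row 2 lay nearer miR-210-3p. For CA9 those arrays, at -0.45 to 0.59, were also well above both miR-210-3p arrays (-2.45 and -1.70). The transcript MIR210HG, from which miR-210 is cut, read -3.25 and -3.51 with miR-629-3p against -0.67 and -0.48 with miR-210-3p (-2.80, SE 0.13, adjusted p = 0.00649, above background on 1 miR-629-3p array), with 0.24 and 0.14 on the NC arrays. Glycolytic genes were lower in 13 of 24 members and higher in 1, with a median of -0.34. Beside SLC2A3, the neuronal-type enolase ENO2 differed by -1.11, and the lactate exporter SLC16A3 and hexokinase HK2 by -0.75 each. PFKFB2 (0.40) was the member called higher.

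Replication and mitosis genes were lower in 32 of 50 members and higher in 1, and their median was -0.35, but none reached 2-fold. GINS1 (4.11 and 4.09 against 5.03 and 4.97, -0.90) and MCM10 (-0.85), both parts of the replication fork machinery, differed most, and E2F2 (0.59) was the member called higher. Replication-dependent histone genes, added after their values were seen, were lower in 37 of 65 and higher in 0, with a median of -0.38 and none at 2-fold. In the respiratory chain 10 of 76 members were lower and 2 higher, with a median of -0.09. The higher ones were NDUFA4 and SDHD, which are also reported miR-210-3p targets, and ATP5G1 (-0.58) was the lowest.

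Genes of the epithelial to mesenchymal transition (EMT) differed both ways, with 9 of 25 members higher and 6 lower and a median of 0.10. The mesenchymal filament gene VIM read 4.12 and 4.07 with miR-629-3p against 5.95 and 5.91 with miR-210-3p (-1.84, SE 0.06, adjusted p = 0.00531). The transcription factor ZEB1 was measured only with miR-210-3p (at least 2.48-fold lower with miR-629-3p). S100A4, a calcium-binding protein of motile cells, was higher at 3.99 and 3.92 against 1.84 and 1.59 (2.24, SE 0.11, adjusted p = 0.00707), and the tight junction gene CLDN1 was 3.64-fold higher. E-cadherin (CDH1) had -0.65 and the epithelial regulator OVOL1 0.66, both called. Of 23 genes of the metalloproteinase and urokinase systems, 6 were higher and 4 lower. Beside MMP3, the collagenase MMP1 was 2.66-fold higher (7.21 and 7.07 against 5.75 and 5.72), whereas the tissue plasminogen activator PLAT was 2.63-fold lower. Collagens were higher in 3 of 18 members and lower in 4. The basement membrane gene COL4A1 was 3.66-fold lower and COL12A1 3.74-fold higher. COL1A1 differed by -2.79 but was not called (adjusted p = 0.0808), since its miR-210-3p arrays read -1.63 and 0.53. Of 19 integrins and laminins, 4 were higher and 4 lower, with LAMA1 (1.30) at 2-fold beside ITGB8.

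**Figure D5:**
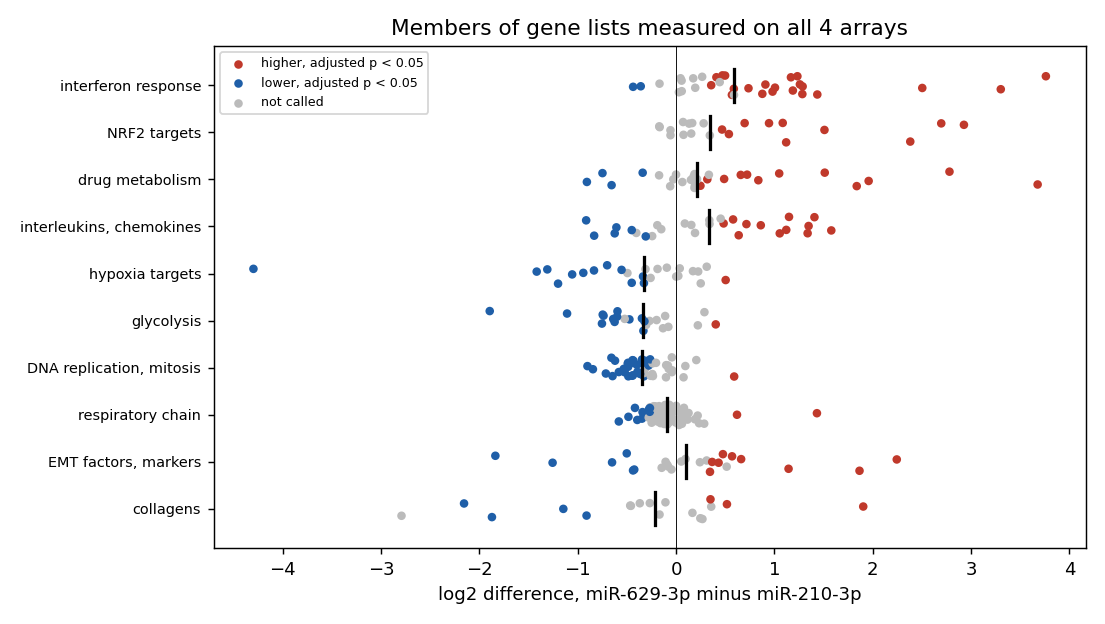
Difference between the groups (horizontal axis, log2, miR-629-3p minus miR-210-3p) for the members of 10 gene lists measured on all 4 arrays (vertical axis), with red points called higher, blue points called lower at an adjusted p under 0.05 and grey points not called. Black bars mark list medians, from 0.59 for the interferon response to -0.35 for replication and mitosis.

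Growth factors and their receptors were higher in 14 of 45 members and lower in 14, with the vessel-destabilising ligand ANGPT2 5.14-fold higher (0.15 and 0.03 against -2.31 and -2.23) and the receptor TGFBR1 2.97-fold lower. ID2 (1.44) and ID3 (0.96), which block helix-loop-helix factors, were higher, and the EGF receptor ligand AREG had -0.96. Of 31 genes of amino acid and unfolded protein stress, 9 were higher and 4 lower. DDIT3 (1.02) and CHAC1 (1.01), both induced by ATF4, were at 2-fold beside SLC7A11, and EDEM1 (-0.98) was lower. In cholesterol and lipid synthesis 8 of 32 were higher and 1 lower. INSIG1, the sterol-regulated brake on SREBP, was 2.88-fold higher. Keratins and cornification genes were higher in 6 of 27 and lower in 6. KRT5 was 2.33-fold higher with miR-629-3p (5.87 and 5.92 against 4.67), but the other 4 arrays read 5.32 to 5.93, so it was low with miR-210-3p. IVL, involucrin of the cornified envelope, was 3.11-fold higher. Genes of the p53 response were higher in 8 of 25 and lower in 2, and BCL2 family and caspase genes were higher in 2 of 27 and lower in 8, with none of either list at 2-fold. BCL2L11 (BIM), a trigger of apoptosis, had -0.75. Of 17 genes of miRNA processing and silencing, 2 were higher and 4 lower. XPO5, which exports miRNA precursors from the nucleus, was 2.51-fold lower with miR-629-3p at its brightest probe, but its other probes differed by -0.46 and -0.02 and were not called. The decapping enzyme DCP2 was 2.18-fold lower, while DROSHA had -0.38 and AGO4 0.44.

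The miR-874-3p and NC arrays place these differences without a test. Of the 631 genes called higher, 253 (40.1%) had all 4 of these arrays nearer the miR-210-3p mean and 61 (9.67%) all 4 nearer the miR-629-3p mean. Over all 21268 genes these shares were 25.0% and 17.8%. Of the 464 genes called lower, 155 (33.4%) had all 4 nearer miR-210-3p and 99 (21.3%) all 4 nearer miR-629-3p. The rest were mixed or lacked a value on an array. CAPN8, MMP3, GPX2, SLC7A11, ANGPT2 and ANGPTL4 belong to the genes with all 4 nearer miR-210-3p. ISCU, NDUFA4, FGFRL1, TNPO1, KRT5, MARCO, IFNK and SELE belong to those with all 4 nearer miR-629-3p. Of these, IFNK and SELE were measured only with miR-210-3p. These arrays lie in slide row 2, so their distance from either group holds a difference in slide row as well.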

How the data were processed

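The authors deposited 1 scanner file per array, made with Agilent Feature Extraction 11.5.1.1. It holds the intensity of each spot (processed signal, mean, local background) and flags for detection, outliers and saturation. They also deposited a log2 table of the same arrays, which equalled the scanner values minus the 75th percentile of each array to a constant offset of 0.0058 to 0.00755 (at least 99.96% of probes within 0.05), and served as an alternative. Total RNA (100 ng) was labelled with Cy3.

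Control spots and outlier spots (87 to 162 of 60901) were dropped, and the remaining spots of each probe averaged. A probe counted as well above background if at least 0.5 of its spots were. The comparison used limma 3.58.1 (lmFit, eBayes; R 4.3.3) on the 4 arrays, with 2 residual and 1.61 prior degrees of freedom and Benjamini-Hochberg adjustment over all genes tested. The precision is limited by the number of arrays. Of the gene names, 14139 matched the RefSeq table of GRCh38.p14 by name, 1264 by accession and 129 by an older name, which gave the gene types, and 5736 did not match. Coordinates of probes come from the scanner files (hg19).

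On simulated arrays of this comparison with 200 of 21268 genes changed, the fit recovered 27 of 100 genes changed 2-fold and 78 of 100 changed 4-fold at an adjusted p under 0.05, with 4 false calls. At the unadjusted p with 2-fold it recovered 52 and 99 of 100, with 117 false calls. Far more genes than 200 passed the adjusted threshold on the measured arrays, 2710 higher and 3462 lower at any fold. The recovered shares and false calls above therefore need not hold for the measured comparison. An effect of slide column was not tested.

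The members and gene lists were chosen with earlier results of these data known. Genes named are the 10 coding genes with the largest difference in each direction among those called and measured on all 4 arrays, the 5 in each direction with the largest bound, 2 non-coding genes per direction, up to 4 called members of each list and the 2 largest not at 2-fold, called target genes, and probes with a seed match. Small RNA families, histone and host genes, promoter motifs and other list members named were chosen after their values were seen. Alternatives were normexp with an offset of 50, quantile normalization, median centring, the deposited values, outlier spots kept, a signal floor, other detection filters, every probe, all 8 arrays, eBayes with trend, a replicate block, the methods' t-test and each array left out. Transcript UTRs were not used here, and some genes that the rule names are not reported here.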

Additional observations from a re-analysis of the deposited data

How the results depend on the processing

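Counts of called genes depended on the treatment of dim signals. At an unadjusted p under 0.05 with 2-fold (701 higher and 526 lower), normexp background correction gave 166 higher and 153 lower, detection on all 4 arrays gave 436 higher, and no filter on detection gave 862 lower. At an adjusted p under 0.05 (2710 higher and 3462 lower), limma without a filter gave 0 and 0, with 3935 higher and 4772 lower at an unadjusted p under 0.05, and the median of all genes moved to -0.14. The methods' t-test gave 577 and 427 at the unadjusted p with 2-fold and 509 and 777 after Benjamini-Hochberg. Leaving out 1 array, with the spread then taken from the other group, gave 0 and 0 in each of the 4 cases by limma, with 3220 to 3557 higher and 3854 to 4349 lower unadjusted, and 746 to 785 higher and 563 to 583 lower with 2-fold. The arrays of a group share only a number: deviations of same-numbered arrays correlated at -0.02, and the replicate block gave 768 and 686 (712 and 535 unadjusted with 2-fold).

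The median of probes with a miR-629-3p match (-0.09) was -0.045 with normexp, -0.053 with quantile normalization, -0.20 without a filter, -0.12 on probes detected on all 4 arrays, -0.060 with the 6-base site and -0.12 to -0.081 without 1 array. That of probes with a miR-210-3p match (0.09) was 0.046 with normexp, -0.047 without a filter and 0.054 to 0.13 without 1 array. Direction turned for TET3 on all 4 arrays (-0.74, another probe) and, without miR-629-3p replicate 2, for RNA18S5 (-0.18, and up to 1.40 without another array), SC5D (-0.20, up to 1.76) and SNORA34 (-0.18, up to 0.71). The other named genes kept their direction under every alternative that gave a value. Their calls were the same in 1650 checks, lost in 273 and gained in 20, beside 580 calls lost without 1 array. With normexp the differences of 66 of the 145 named and called genes were smaller by over 1.5 times, and with the signal floor those of 12. A call here means an adjusted p under 0.05 at any fold. By it all 66 stayed called and 1 of the 12 lost its call. At 2-fold not all of the 66 would remain, as ABCA1 fell to -0.98 and ABCC2 to 0.25 with normexp. The SNORA count at 2-fold unadjusted (68) was 67 to 69 without 1 array and 50 with normexp.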
